A study of Mus musculus with 8 samples.

Results

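The ovary of the vehicle-treated Lethal Yellow (LY) mouse is described here gene by gene, from 4 of the 8 arrays of the series. The 4 arrays were chosen by their titles, which mark them as controls, and the 4 arrays of pioglitazone-treated mice were not used, so that no treatment comparison is made. The mice were heterozygous females (C57BL/6J Ay/a) that received DMSO, the solvent of the drug in the other group, by daily gavage for 60 days, from 120 to 180 days of age. They were fasted overnight before they were killed, and 1 ovary of each mouse, trimmed of fat and connective tissue, gave the RNA of 1 CodeLink whole-mouse array. The Ay allele is a deletion that places the agouti gene under the promoter of the neighbouring gene Raly, so that agouti is made in nearly every tissue, and LY mice become obese and insulin resistant with age. All 4 mice carried this allele and all 4 had DMSO, lean mice were not analysed here, and the stage of the estrous cycle is not given in the sources used here.

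The ovary holds oocytes enclosed by granulosa cells, theca cells and stroma around the follicles, and corpora lutea, which form from follicles after ovulation. Steroids are built in steps: cholesterol is carried into mitochondria and cut to pregnenolone by Cyp11a1, which receives electrons from ferredoxin (Fdx1), pregnenolone is turned into progesterone by Hsd3b1, and theca cells make androgens with Cyp17a1. In rodents the corpus luteum passes through short phases, and Akr1c18, which inactivates progesterone, marks its regression.

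Each value is a linear intensity corrected for background and divided by the median of its array, so that 1 relative intensity unit is the middle probe of an array and 0.2 is the limit of sensitivity. A named gene is one whose probe carries exactly 1 gene symbol, each gene is represented by its brightest probe, and 18011 named genes were measured. The 4 arrays were alike in depth of detection: between 82.5% and 83.9% of probes reached 0.2, and 137 to 174 spots per array were missing. Log2 values correlated between arrays with r from 0.958 to 0.981 across probes, which are not independent replicates, and mouse 3 had the lowest r with each of the other mice. With 1 array per mouse, the SD holds biological and technical spread together, and the number of arrays limits the precision. In RNA of a whole ovary, fewer cells of a type and less RNA per cell cannot be told apart.

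The genes that mark the tissue were bright. Hsd3b1 lay at 218, 225, 242 and 197 relative intensity units in mice 1 to 4, with a mean of 220.5 ± 18.4 (SD, n = 4) and rank 26 of all named genes. The 4 mice were close to each other, with a ratio of 1.23 between the highest and the lowest. Actb, the cytoskeletal actin of every cell, lay at 267, 209, 234 and 187, with a mean of 224 ± 34.3 and rank 23. The steroid genes downstream and upstream of Hsd3b1 were less even. Cyp17a1 was at 297 in mouse 1 and 170 in mouse 4 but at 17.7 in mouse 2 and 7.17 in mouse 3, which gave a mean of 123 ± 138 and rank 105. Cyp11a1 ran the other way, with 67.6 in mouse 2 and 68.2 in mouse 3 against 30.1 in mouse 1 and 46.1 in mouse 4, a mean of 53.0 ± 18.4 and rank 398. The steroid markers of an ovary were thus present in all 4 mice, with Cyp17a1 the least even of them.

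**Figure D1:**
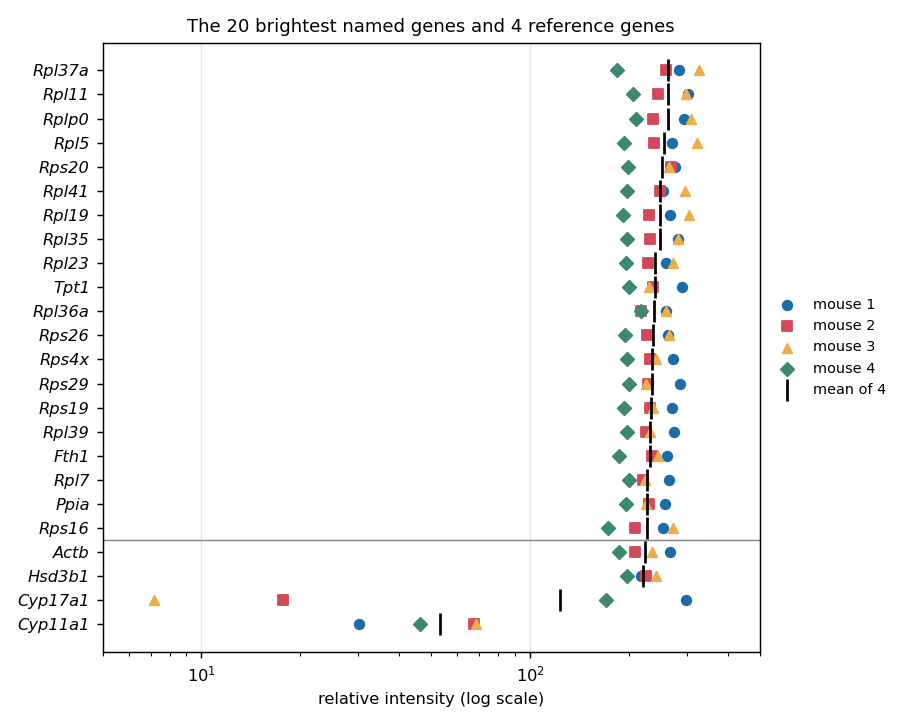
Relative intensity (log axis) in each of the 4 vehicle-treated mice for the 20 brightest named genes and, under the grey line, for Actb, Hsd3b1, Cyp17a1 and Cyp11a1; black ticks mark the mean of 4 mice. The 20 brightest genes lie close together in every mouse, while Cyp17a1 runs from 7.17 to 297.

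The promoters of genes with different levels and spreads can be read side by side. The 100 bases before the RefSeq start (build GRCm38.p6) are given for 6 genes. They are Rps4x, a ribosomal protein gene among the 20 brightest, Hsd3b1 and Cyp11a1 as steroid genes, Akr1c18 and Adamts1 from the 20 most variable, and Olfr812, the brightest olfactory receptor gene. They are written 5′ to 3′ on the gene's strand, and capitals mark GGGCGG, the core of a GC box, TATAAA, the letters of a TATA box, and CCAAT, on either strand, so that CCGCCC is counted for the first, TTTATA for the second and ATTGG for the last.
Rps4x: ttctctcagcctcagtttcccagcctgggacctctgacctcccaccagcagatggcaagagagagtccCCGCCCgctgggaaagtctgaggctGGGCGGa
Hsd3b1: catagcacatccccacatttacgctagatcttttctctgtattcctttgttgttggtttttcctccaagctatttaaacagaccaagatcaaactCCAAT
Cyp11a1: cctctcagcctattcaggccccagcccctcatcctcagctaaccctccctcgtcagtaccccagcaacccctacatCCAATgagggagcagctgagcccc
Akr1c18: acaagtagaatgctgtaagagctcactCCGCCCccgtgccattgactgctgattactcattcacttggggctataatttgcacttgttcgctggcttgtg
Adamts1: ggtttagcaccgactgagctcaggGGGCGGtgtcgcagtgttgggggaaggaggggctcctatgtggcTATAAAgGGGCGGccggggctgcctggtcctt
Olfr812: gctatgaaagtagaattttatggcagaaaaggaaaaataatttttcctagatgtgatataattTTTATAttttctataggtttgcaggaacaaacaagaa
They lie at chrX:102189392-102189491 (minus strand) for Rps4x, chr3:98859795-98859894 (minus) for Hsd3b1, chr9:57997924-57998023 (plus) for Cyp11a1, chr13:4150647-4150746 (minus) for Akr1c18, chr16:85803114-85803213 (minus) for Adamts1 and chr10:129843041-129843140 (minus) for Olfr812. The Rps4x window holds GGGCGG at 32 and 7 bases before the start, counted to its first base, and none of the other letters searched. The Hsd3b1 and Cyp11a1 windows hold CCAAT and no GGGCGG, the Adamts1 window holds both GGGCGG and TATAAA, and the Olfr812 window holds TATAAA alone.

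Over the 250 bases before the start, promoters were found for 14363 of the 18011 named genes, and 47.75% of them held GGGCGG. The share was 26.17% for genes under 0.2 in all 4 mice, 38.46% for means from 0.2 to 1, 53.43% from 1 to 10 and 61.18% from 10 to 100, and it was 53.72% for means of 100 or more. Among the 81 of the brightest 100 genes with a promoter it was 53.09%, and among the 72 of the most variable 100 it was 40.28%. Olfactory receptor genes stood at the other end, with GGGCGG in 0.6977% of 430 promoters and TATAAA in 39.07%, against 10.24% of all promoters. Their promoters were also poor in G and C, with a median of 34.4% against 57.2% for all. CCAAT was found in 35.33% of all promoters and in 29.63% of the brightest 100, and AAGGTCA, a sequence bound by the steroidogenic factor Nr5a1, in 3.467% and 4.938%. Each motif was searched on its own on both strands, and a match is a description of the letters, not of a bound site.

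Most named genes gave a signal over the limit. Of 18011 named genes, 14911 (82.8%) were at 0.2 or more in all 4 mice and 1410 were under it in all 4 (7.83%). The middle gene had a mean of 1.73, the middle 50% of genes lay between 0.474 and 6.89, and 3392 genes (18.8%) had a mean of 10 or more. Only 429 genes reached 50 and 154 (0.855%) reached 100, while the highest mean was 263. Among the 13874 probes with no gene name, 14.4% were under the limit in all arrays with a value, against 11.1% of all 36079 probes counted.

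Genes of tissues that an ovary lacks were not all dark. Of 494 olfactory receptor genes, 66 (13.4%) were under 0.2 in all 4 mice, against 7.83% of all named genes, and their median mean was 0.505. Of 98 vomeronasal and taste receptor genes 25 (25.5%) were, of 29 defensin genes 13 (44.8%), of 19 striated muscle genes 4 (21.1%), of 13 hepatocyte genes 3 (23.1%) and of 14 testis germ cell genes 3 (21.4%). The median means of these 6 lists lay between 0.213 and 0.505, and some members were bright. Olfr812 read 99.2, 67.4, 48.5 and 50.6 in mice 1 to 4, above Cyp11a1 in mean, and Olfr692 and Olfr328 had means of 58.8 and 34.5. The 7 measured genes of the Y chromosome, which these females lack, also gave signal: 0 of 7 were under 0.2 in all 4 mice, against 7.83% of all named genes. Sry, the testis-determining gene, lay at 0.349 to 0.436, Usp9y at 2.31 to 2.56, and Kdm5d, which has a partner gene on the X chromosome, at 3.15 to 7.73. Mean readings for these genes, which the mice do not carry, thus reached from 0.175 to 5.55. Binding of related transcripts, such as those of X chromosome partner genes, was not tested, so the range is not read as background alone.

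**Figure D2:**
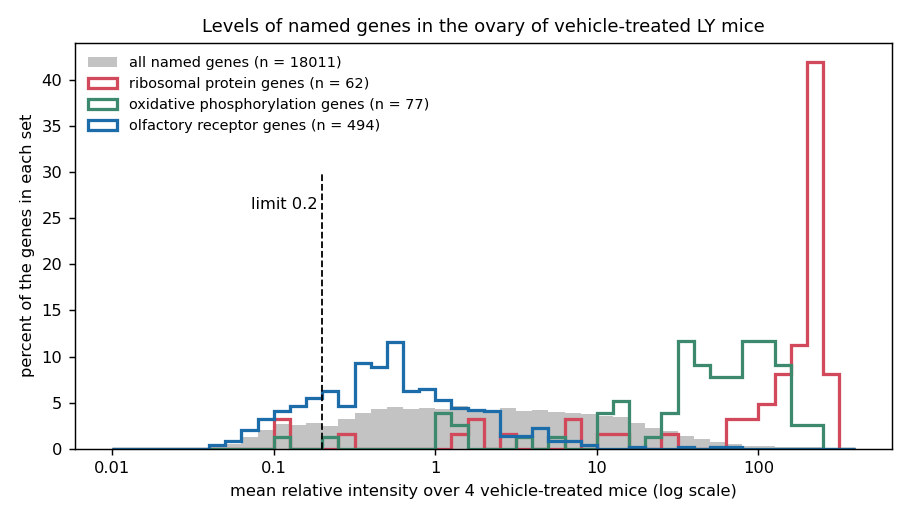
Mean relative intensity over the 4 vehicle-treated mice (log axis) as the percent of genes in each set, for all 18011 named genes (grey), 62 ribosomal protein genes (red), 77 oxidative phosphorylation genes (green) and 494 olfactory receptor genes (blue); the dashed line is the limit of 0.2. Ribosomal protein genes have a median of 199 and olfactory receptor genes a median of 0.505.

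The brightest genes were those of the ribosome. Ribosomal protein genes made up 44 of the brightest 100, that is 44 of the 62 measured (71.0%), against 0.555% of all named genes. They included 17 of the first 20. Rpl37a, a protein of the large subunit, was first by mean, with 284, 259, 327 and 183 in mice 1 to 4 (263 ± 60.2). Rpl11 followed with 302, 245, 299 and 205 (263 ± 46.4) and Rplp0, of the ribosomal stalk, with 293, 237, 308 and 210.0 (262 ± 46.4). Mouse 4 was the lowest for each of these genes, and mice 1 and 3 were the highest. Neighbours in the order lay close, since sorting by mean sets genes of like level side by side. Of the 19 gaps between neighbours among the 20 brightest genes, 0 exceeded the pooled SD of the pair, and of the 99 among the brightest 100, 0 did. Small gaps follow from the sorting, so these counts do not show how well the order is resolved. The last gene inside the brightest 100 was Rpl27, with a mean of 126, and the first outside was Tubb4b, with 125.

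Other genes at the top served translation, energy and the cell's frame. Tpt1, a translationally controlled protein, lay at 289, 236, 230.0 and 201 (mean 239). In all, 5 of 62 translation factor genes (8.06%) stood in the brightest 100, where 0.555% of all named genes did. Of 77 genes of oxidative phosphorylation, 11 (14.3%) did, among them the ATP synthase gene Atp5g3, the cytochrome oxidase genes Cox6a1 and Cox6c, and Uqcrh of complex III. Atp5g3 was also the least even of these, with 365 in mouse 1 and 272 in mouse 2 but 105 in mouse 3 and 162 in mouse 4. Mouse 3 was the lowest for 45 of the 75 oxidative phosphorylation genes in the measure of spread, and for 37.3% of all genes in it. Mouse 1 was the highest for 50 of the 75, and for 36.7% of all genes. Of 13 cytoskeleton genes 5 (38.5%) were in the brightest 100, namely Actb, Actg1, Tmsb4x, Tuba1b and Myl6, against 0.555% of all named genes. Fth1, the heavy chain of ferritin, the iron store of the cell, read 261, 234, 245 and 187, and Ppia, a prolyl isomerase that many laboratories use as a reference gene, read 258, 230.0, 225 and 195. Sod1 and Prdx2, which remove superoxide and peroxide, had means of 179 and 149.

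The ovary's own genes at the top were fewer. Of 12 steroid synthesis genes 2 (16.7%) were in the brightest 100, Hsd3b1 and Fdx1, against 0.555% of all named genes. Fdx1 lay at 227, 216, 146 and 168 (189 ± 38.5). The stroma gave Mgp, matrix Gla protein, with 151, 203, 223 and 114, and Col3a1, the fibre collagen, with 114, 177, 144 and 86.1. Sparc, a matrix protein of stroma and vessels, had a mean of 167. In these 3 matrix genes mice 2 and 3 were above mice 1 and 4. That did not hold for Col6a2, the next matrix gene in level, at 92.1, 83.4, 90.6 and 73.0. Over the 26 extracellular matrix genes in the measure of spread, mouse 3 was the highest for 12, against 30.1% of all genes. It was the lowest for 5, against 37.3%. The brightest 100 held 27 genes that were in none of the 44 lists, among them Igfbp7 (mean 218), Mt1, a metallothionein (196), and Aldh1a1, which makes retinoic acid (188), all 3 named after their values were seen.

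The brightest genes took a modest part of the signal. The 100 brightest genes of each mouse held 12.8% to 15.3% of the summed intensity of named genes. Ribosomal protein genes held 7.34, 6.996, 8.28 and 6.63% in mice 1 to 4, and oxidative phosphorylation genes 4.14, 4.02, 3.33 and 3.63%. The scale was also flattened at its top, since the brightest probe, named or not, was 1.25 to 1.60 times the probe ranked 50 in the same mouse. Dim probes of genes that are abundant in most tissues occurred: Rpl34 had a mean of 0.124, Rps2 0.258, Eef2 0.279 and Gapdh 0.867, all named after their values were seen. In 2673 genes with several probes, the brightest at 0.5 or more, the brightest was a median of 4.08 times the next, and over 2 times in 75.2% of them. An order of genes by intensity is therefore an order of probe brightness.

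Follicle genes covered a wide range of levels. Of 27 oocyte genes 0 were under the limit in all 4 mice, where 7.83% of all named genes were, and their median mean was 5.17. Nlrp14 was the brightest with 62.5, 44.9, 36.6 and 58.3, Zp3, a protein of the egg coat, read 46.8, 33.9, 32.4 and 45.0, and H1f8, the oocyte linker histone, had a mean of 23.98. Mouse 4 was the highest for 18 of the 25 oocyte genes in the measure of spread, against 11.3% of all genes, and mouse 3 was the lowest for 15, against 37.3% of all genes. Of 16 granulosa genes 1 was under the limit, Inhbb, with a mean of 0.111. Amhr2, the receptor of anti-Müllerian hormone, was the brightest with 94.0, 65.9, 42.7 and 66.0, and Inha and Inhba, which encode inhibin and activin chains, had means of 31.3 and 25.3. Fshr, the receptor of follicle-stimulating hormone, lay between 4.22 and 7.01.

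Luteal genes were measured in all mice but at unequal levels. Of 11 luteal genes 0 were under the limit, against 7.83% of all named genes, and 5 had a mean of 10 or more, against 18.8%. Star, which brings cholesterol into mitochondria, read 22.8, 36.7, 40.4 and 10.3, and Idh1, a source of NADPH, read 3.44, 20.0, 24.4 and 8.32. Mice 2 and 3 were above mice 1 and 4 for both genes. Other luteal genes went otherwise: Scarb1 read 5.15, 6.56, 7.29 and 7.49, and Hsd17b7 read 0.833, 0.771, 0.744 and 0.605. Genes of the ovulating follicle were dim, with a median mean of 1.14 over 14 genes, and 0 of them reached 10. Edn2, whose product contracts the follicle wall, was the brightest, with 13.1 in mouse 2 and 0.928 to 3.28 in the others.

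Genes of supporting cells and of blood were also read. Smooth muscle genes were bright as a list, with a median mean of 24.6 over 12 genes, and Acta2 read 83.7, 104, 81.7 and 87.7. Endothelial genes were at a median of 2.609 over 15 genes, with Esam at 21.8 and Kdr at 15.4 in mean, although the probes of Cdh5 and Flt1, both defining genes, were under the limit in all 4 mice. Macrophage genes had a median of 8.90 over 16 genes, with Ctss at 71.6, 71.7, 26.1 and 43.1 and C1qb at 56.3, 60.4, 34.8 and 38.3. Mice 1 and 2 were above mice 3 and 4 for both macrophage genes. Other members went otherwise: C1qc read 40.9, 26.9, 27.4 and 25.4, and Lgmn read 2.67, 8.37, 8.05 and 2.75. Over the 14 macrophage genes in the measure of spread, mouse 2 was the highest for 8, against 21.9% of all genes. Mouse 3 was the lowest for 9, against 37.3%. Lymphocyte genes were dimmer, with a median of 1.29 over 14 genes and Jchain, the joining chain of secreted antibodies, the only one with a mean over 10. Of the 3 red blood cell genes measured, Alas2 was the brightest with a mean of 3.13.

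Fat genes were measured although the ovaries had been trimmed. Fabp4, the lipid carrier of fat cells, read 11.8, 39.5, 18.7 and 10.8, and Adipoq, which encodes adiponectin, 4.71, 10.7, 6.11 and 4.87. Mouse 2 was the highest for both. It was not for the other bright members of the list: Lpl, a lipase, read 24.98, 19.1, 12.7 and 15.9, with mouse 1 highest, and Cidec, of lipid droplets, read 10.4, 9.05, 11.1 and 8.24, with mouse 3 highest. Mouse 2 was the highest for 5 of the 10 adipocyte genes in the measure of spread, against 21.9% of all genes. Of 15 adipocyte genes 1 was under the limit in all 4 mice, Ucp1 (6.67%, close to the 7.83% of all named genes). The leptin gene Lep, which defines fat cells too, had a mean of 0.293. It was over the limit at 0.350, 0.392 and 0.371 in mice 1, 2 and 4, and under it at 0.0580 in mouse 3. The 15 genes summed to 57.9, 93.2, 58.7 and 46.1 in mice 1 to 4, of which Fabp4 alone gave 11.8, 39.5, 18.7 and 10.8. A sum of linear values rests on its brightest members. The agouti gene, on which the model rests, was bright, with 140, 101.4, 61.9 and 102 in mice 1 to 4 (102 ± 32.0, rank 153), and Raly had a mean of 9.94. Mouse 3 was the lowest for both.

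The spread between mice was small for most genes. The SD of log2 values over the 4 mice, with values under 0.2 raised to 0.2, had a median of 0.28 over 13299 genes with a mean of at least 0.5, and the middle 50% of genes lay between 0.18 and 0.42. Without mouse 3 the median was 0.21. The spread hardly changed with level, from a median of 0.25 for means of 0.5 to 1 to 0.30 for means of 10 to 50 and 0.28 for means of 100 or more. An SD of 0.5 or more was found for 2224 genes (16.7%), of 1 or more for 194 (1.46%) and of 2 or more for 8. Hsd3b1 had an SD of 0.12 and Actb 0.22, both near the flattened top of the scale, whose part in these low values was not tested. Cyp11a1 had 0.56 and Cyp17a1 2.57, the third highest of all.

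**Figure D3:**
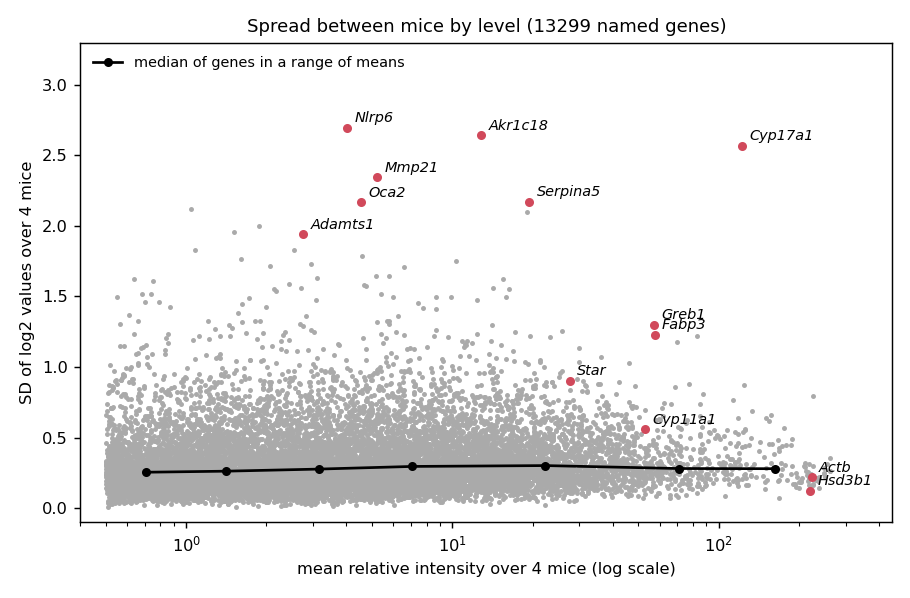
SD of log2 values over the 4 vehicle-treated mice against the mean relative intensity (log axis) for 13299 named genes; the black line joins the medians in ranges of the mean, and named points are in red. The medians stay between 0.25 and 0.30, while Nlrp6, Akr1c18 and Cyp17a1 lie above 2.5.

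The 20 most variable genes fell into a few patterns over the mice. Akr1c18 was at 36.2 in mouse 2 and 12.8 in mouse 3, and at 0.674 in mouse 1 and 1.62 in mouse 4, an SD of 2.64. The protease gene Adamts1, which acts at ovulation, read 0.335, 6.30, 3.56 and 0.800, and Ptgfr, the luteal receptor of prostaglandin F2α, read 0.368, 5.43, 1.81 and 0.632. Mice 2 and 3 were above mice 1 and 4 in all 3 genes, although for Ptgfr the widest gap on the log2 scale set mouse 2 alone apart. Akr1c20, a further aldo-keto reductase, the transcription factor gene Onecut2 and Dlk1, a membrane protein related to Notch ligands, were split with mice 2 and 3 high. Dlk1 read 0.159, 2.04, 1.87 and 0.238. By the widest gap mouse 2 alone was high for Edn2, and mouse 3 alone, at 4.65, for Bhmt, a methyltransferase of homocysteine. The transcripts 4930486L24Rik and 3425401B19Rik were also above the others in mice 2 and 3, at 23.98 and 45.8 and at 2.06 and 3.57.

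The reverse pattern held genes next to Cyp17a1. Serpina5, which inhibits serine proteases, read 38.9 and 33.5 in mice 1 and 4 and 2.23 and 3.28 in mice 2 and 3. Oca2, known from pigment cells, read 9.79 and 7.09 in mice 1 and 4 and 0.817 and 0.499 in mice 2 and 3. Tulp2, Spink4, a protease inhibitor, and Klhl31 had mice 1 and 4 above mice 2 and 3 too, although the widest gap for Klhl31 set mouse 3 alone apart as low. A few genes were set by 1 mouse. Nlrp6, an inflammasome sensor, had the highest SD of all (2.70), with 14.9 in mouse 1 and 0.262 to 0.536 in the other mice. Mmp21, a matrix metalloproteinase, was at 18.7 in mouse 2 and at 0.624 to 0.850 in the others, and Ovol2 and Ly6d were also high only in mouse 2 among the 4.

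**Figure D4:**
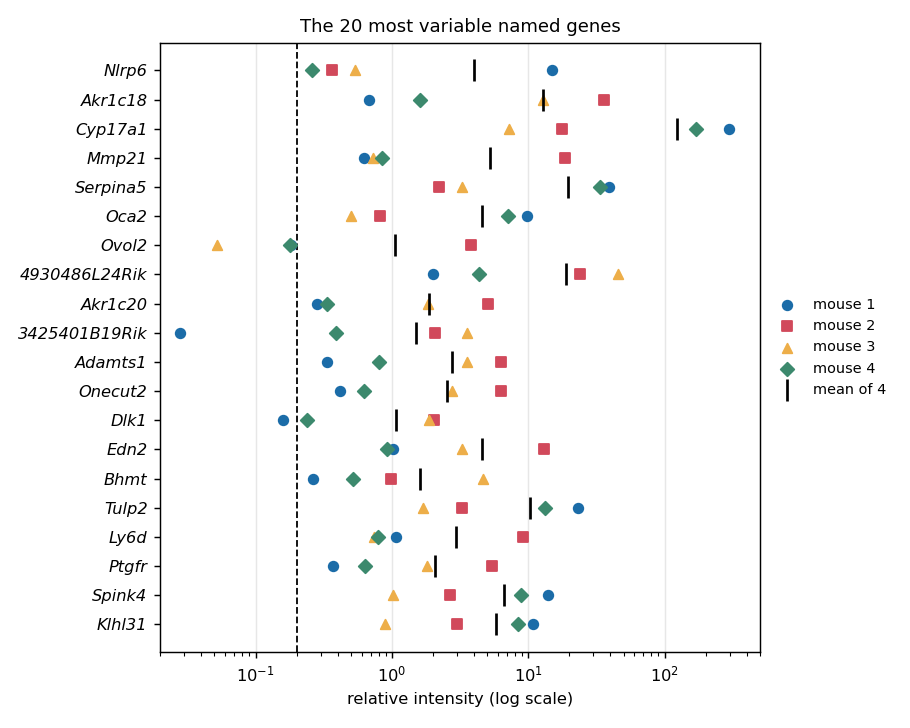
Relative intensity (log axis) in each of the 4 vehicle-treated mice for the 20 named genes with the highest SD of log2 values; black ticks mark the mean, and the dashed line is the limit of 0.2. Mice 2 and 3 lie together for Akr1c18, Adamts1 and Dlk1, and mice 1 and 4 for Cyp17a1, Serpina5 and Oca2.

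Over the 100 most variable genes, a cut at the widest gap between the 4 mice put mice 2 and 3 on the high side of 31 genes and mice 1 and 4 on the high side of 22. The same cuts were found for 5.72% and 5.59% of all 13299 genes. Mouse 3 alone was low in 16 of the 100 and in 22.2% of all genes, and mouse 2 alone was high in 14 of the 100 and in 6.36% of all. Genes with mouse 3 alone low included Greb1, a target of estrogen, with 87.7, 62.5, 12.04 and 66.3. The last gene inside the most variable 100 was Abcb1b, with an SD of 1.20, and the first outside was Spon2, also at 1.20.

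Of the 100 most variable genes, 17 were in at least 1 of the 44 lists, as were 1463 of all 18011 named genes, and the 100 were 0.752% of the 13299 genes in the measure. The lists were chosen with earlier results of these data known, so their counts and spreads are a description and not a test. The luteal list gave 4 of its 11 members, Akr1c18, Ptgfr, Idh1 and Abcb1b, and its median SD was 0.90 against 0.28 for all genes. The cumulus and ovulation list gave 3 of 11, Adamts1, Edn2 and Ereg, an epidermal growth factor-like ligand. All 3 were highest in mouse 2. Other members of that list went otherwise: Ptx3 read 2.40, 1.28, 0.512 and 1.54, Pgr was highest in mouse 1 at 1.08, and Runx1 had an SD of 0.12. Steroid synthesis gave 2 of 12, Cyp17a1 and Akr1c18, theca and stroma gave 2 of 15, Cyp17a1 and Col1a1, and extracellular matrix gave 2 of 26, Col1a1 and Timp1. Ribosomal protein, oxidative phosphorylation and olfactory receptor genes gave 0 of 59, 0 of 75 and 0 of 248. Fabp3, a fatty acid carrier, was the variable member of the plasma and lipid carrier list, with 110.5 in mouse 1 and 75.03 in mouse 4 against 18.0 and 26.6 in mice 2 and 3.

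The medians of some lists differed between mice. The luteal genes lay 0.79 above their own mean in mouse 2 and 0.56 above in mouse 3 in the median, on the log2 scale, and at -0.74 and -0.66 in mice 1 and 4. The adipocyte list was at 0.48 in mouse 2 and 0.15 in mouse 3, and at -0.40 and -0.39 in mice 1 and 4, so that the medians of both lists were above 0 in mice 2 and 3. Single members went other ways, such as Lpl of the adipocyte list and Scarb1 and Hsd17b7 of the luteal list. The part of fat in the luteal pattern was not tested. The extracellular matrix list was at 0.24 and 0.30 in mice 2 and 3. The cumulus and ovulation list was at -0.03, 0.03, 0.14 and -0.21 in mice 1 to 4. Oocyte genes were at 0.34 in mouse 4 and 0.11 in mouse 1, and at -0.19 and -0.27 in mice 2 and 3. In mouse 3, olfactory receptor genes were at 0.15 and vomeronasal and taste receptor genes at 0.13. That mouse was the highest for 149 of 248 and for 23 of 37 of them, against 30.1% of all genes. Over all genes the median deviation lay between -0.03 and 0.09 in every mouse.

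**Figure D5:**
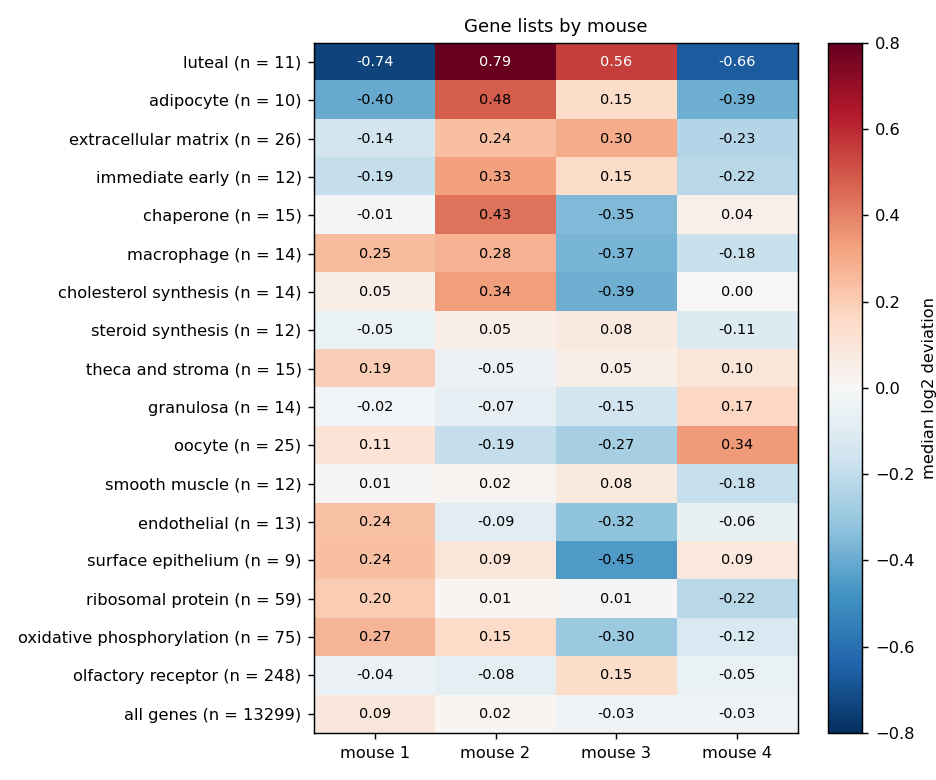
Median deviation of the genes of each list from their own mean over 4 mice, on the log2 scale, in each vehicle-treated mouse; red is above and blue below the mean, and n is the number of genes with a spread. The luteal list reads -0.74, 0.79, 0.56 and -0.66, and all genes read between -0.03 and 0.09.

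A second probe of the same gene gives a reading that the order did not use, on the same RNA and array. Of 1698 genes with a second probe at 0.5 or more, 35.4% had the same highest mouse on both probes and 33.7% the same lowest. Of the 100 most variable genes 9 had such a probe, and 4 of the 9 shared the highest mouse and 4 the lowest. Their median SD was 1.42 on the first probe and 0.28 on the second. For Ptgfr the second probe read 1.14, 3.05, 2.16 and 1.36, with mice 2 and 3 again above mice 1 and 4, and for Onecut2 it read 1.10, 1.62, 1.59 and 1.153, with the same mice above. For Kit, a receptor of oocytes and theca, the first probe read 13.5, 3.45, 1.798 and 12.2 and the second 1.05, 0.658, 0.873 and 0.876, and the mice were less apart on the second. For Golga7 and Trib2 mouse 3 was the lowest on the first probe, at 3.85 and 2.85. It was the highest on the second, at 2.84 and 10.8. Zeb1 and Csmd1 also shared neither the highest nor the lowest mouse. The cut at the widest gap was the same on both probes for 2 of the 9 genes. Of the 100 most variable genes, 91 had no second probe that passed 0.5, Nlrp6, Cyp17a1 and Akr1c18 among them.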

How the data were processed

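Ovarian RNA of 4 vehicle-treated LY mice was read on arrays of 36227 probes. The deposited values are linear intensities: the authors scanned the slides, removed background with the CodeLink program, and set each slide to its median in GeneSpring. The methods also name a scaling per gene, of which the values show no sign. Here -9999 was read as missing and each array was divided again by its median, which lay between 1.007 and 1.014.

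Genes were named from the platform annotation, which gave 1 gene for 21615 probes, several for 681 and none for 13931. Of those 21615 probes, 21487 had a symbol found in RefSeq. The brightest probe with at least 3 values stood for its gene, and 15028 genes had 1 probe. As the arrays form 1 group, no test was run.

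The members and the 44 gene lists were chosen with earlier results of these data known. Genes were named by rule: Hsd3b1, Actb, Cyp17a1 and Cyp11a1, the 20 brightest, the 20 most variable, and of each list up to 4 members of the highest mean and the one of the highest SD. Fshr, Inhbb, Cdh5, Flt1, Lep, Ucp1, Myl6, Ereg, Timp1, Abcb1b, Insr, the dim abundant genes, the 3 bright genes of no list and those next to a threshold were chosen after their values were seen. So were Golga7, Trib2, Zeb1 and Csmd1, named for their second probes, and Scarb1, Hsd17b7, Ptx3 and Pgr. The patterns of the defensin, immunoglobulin and MHC lists and 1 member of the agouti list were corrected then too, because they matched unrelated genes.

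Python 3.11.15, pandas 2.3.3, numpy 2.4.6 and, for other normalizations, limma 3.58.1 in R 4.3.3 were used, and the steps were tested on simulated data. Alternatives were each array left out, no scaling, quantile or cyclic loess normalization, the mean over all probes of a gene, and other limits, floors, filters and measures.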

Additional observations from a re-analysis of the deposited data

Results flagged for a closer look

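Of 110 genes that the text names, 12 (10.9%) had 1 mouse far from the other 3, by the ratio of its gap to the whole range. Other genes named here were not put to this rule, Golga7, Trib2, Zeb1, Csmd1, Col6a2, C1qc and Lgmn among them. Chance flags about 1 in 20 groups (5%), and many of the genes were named for their spread, so that the count is not a measure against chance. Mouse 2 stood apart on the high side in 6 genes. Its values were 18.7 for Mmp21, 9.18 for Ly6d, 3.77 for Ovol2, 2.12 for Ereg, 1.65 for Esr1 and 89.4 for Ldha, while the other mice reached at most 0.850, 1.08, 0.183, 0.500, 0.345 and 48.9. Mouse 1 was high for Nlrp6 at 14.9 and mouse 3 for Bhmt at 4.65. On the low side, mouse 3 was at 5.58 for Jun, where the others lay between 15.6 and 17.2, and at 0.0580 for Lep. Mouse 4 was low for Prdx2 at 122, where the others lay between 154 and 160.3, and for Inhbb at 0.0206. The low values of Lep and Inhbb were under the limit of 0.2 and carry no order.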

How the results depend on the processing

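The share of named genes under the limit was 8.31% to 9.21% when 1 mouse was left out, against 7.83% with all 4, since fewer arrays had to be under 0.2. It moved to 12.3% when the mean of the 4 arrays had to be under 0.2 and to 0.949% for a limit of 0.1. Of the 100 brightest genes, 94 to 96 were shared when a mouse was left out, and 85 to 100 under the other alternatives, lowest with the mean over all probes of a gene. The median SD of log2 values ranged from 0.21, without mouse 3, to 0.29, without mouse 4, and from 0.26 to 0.29 under the other alternatives. Of the 100 most variable genes, 67 to 86 were shared when a mouse was left out, lowest without mouse 2. A filter at a mean of 2 or more left 65 shared, as dimmer genes could no longer enter, and the other alternatives left 78 to 100. The mean over all probes of a gene moved the level of 12 of the same 110 genes by more than their spread. Examples were Actg1, from 219 to 57.9, and Raly, from 9.94 to 5.37. Without scaling, and with quantile normalization, 0 of the 110 moved by more than their spread. Leaving out 1 mouse moved the mean of 5 genes by over 1.5 times for mouse 1, of 11 for mouse 2, of 4 for mouse 3 and of 1, Alas2, for mouse 4. Without mouse 1, Nlrp6 went from 4.02 to 0.388 and Cyp17a1 from 123 to 64.9. Without mouse 2, Mmp21 went from 5.22 to 0.735, Ovol2 from 1.05 to 0.138 and Akr1c18 from 12.8 to 5.02. Without mouse 3, Bhmt went from 1.61 to 0.592. No paired analysis was possible because the 4 arrays form 1 group. Depth is limited by the array signal over background: a value under 0.2 carries no order.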

Other observations

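Other gene groups were also measured in the 4 mice. Of 16 cholesterol synthesis genes 0 were under the limit in all 4, against 7.83% of all named genes. Fdps, which makes farnesyl diphosphate, was the brightest at 72.7, 104, 80.8 and 58.2 in mice 1 to 4. Over the 14 of them in the measure of spread the median deviation was 0.34 in mouse 2 and -0.39 in mouse 3, on the log2 scale. Cyp51, a step of the same pathway, read 17.1, 19.4, 4.58 and 15.6, with mouse 3 alone low. The median over 15 chaperone genes was 0.43 in mouse 2 and -0.35 in mouse 3, with mouse 2 the highest for 9 of them and mouse 3 the lowest for 8, while Hsp90b1 of the endoplasmic reticulum was steady at 98.0 to 111. Of 15 lysosome and protease genes all had a mean of 5.75 or more, with a median of 37.1, and Ctsl, a cathepsin, read 47.5, 95.6, 34.6 and 63.7. Glycolysis genes had a median of 5.86 over 9 genes, and Ldha, of lactate production, was highest in mouse 2 at 89.4 against 43.5 to 48.9 in the others. Of 77 proteasome and ubiquitin genes 0 were under the limit in all 4 mice, where 7.83% of all named genes were, and their median was 19.51.

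Cells in division and cells of other tissues were read as well. Mki67 and Pcna, both of cycling cells, had means of 37.0 and 41.3, and the 19 cell cycle genes had a median of 6.55. Hormone receptor genes had a median of 3.41 over 14 genes, with Esr2, the main estrogen receptor of granulosa cells, at 15.3 in mean and Insr, the insulin receptor, at 2.30, and Esr1 was at 1.65 in mouse 2 and 0.188 to 0.345 in the others. Surface epithelium genes had a median of 4.58 over 12 genes, and oviduct and ciliated cell genes 0.529 over 11, with Tppp3 the brightest at 21.3, 7.98, 7.55 and 16.4. The immediate early genes, which respond to handling and hormones, had a median of 2.52 over 17 genes, and Jun was at 5.58 in mouse 3 and 15.6 to 17.2 in the others. Neuron genes had a median of 0.714 over 13, pancreas and gut genes 0.885 over 8, keratin-associated protein genes 0.393 over 31, and immunoglobulin and T cell receptor genes 0.583 over 38. Of 39 histone genes 9 (23.1%) were under the limit in all 4 mice, against 7.83% of all named genes. The variant genes H2az2 and H2az1 had means of 99.8 and 87.3. H2-D1, a class I antigen presentation gene, was the brightest of 27 MHC genes, with a mean of 86.1. Xist, the RNA of the inactive X chromosome, read 2.93, 2.56, 1.68 and 3.89.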
